A study of Mus musculus with 24 samples.

Results

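Interferon-stimulated genes are the genes that cells switch on when type I or type II interferon binds its receptor. A list of 43 such mouse genes was followed here, chosen by name and matched to the array by gene symbol. Of these, 39 were measured, each by 1 feature among 22206 gene features, and the other 4 (Ifi44, Ifi47, Gbp5 and Ifi205) were not analysed here. The genes were measured in RAW 264.7 cells, a mouse macrophage line transformed by Abelson murine leukaemia virus, on 24 whole-transcript arrays in 8 groups of 3. Cells with LPS received 500 ng/mL of lipopolysaccharide, the outer membrane glycolipid of Gram-negative bacteria, for 6 h, and resting cells were mock treated for the same time. In each state, cells had either no polyphenol or grape proanthocyanidin (PAC) at 15 µg/mL, added 30 min before. PAC are polymers of flavan-3-ol units, and the low, medium and high PAC fractions differ in their mean degree of polymerization, that is, the average number of units in a chain. With LPS there were thus 4 groups, 1 for each fraction (written low, medium or high PAC + LPS) and 1 without PAC (LPS), and the resting cells made up 4 matching groups, of which the one without PAC is the control.

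In a macrophage, LPS is read by Toll-like receptor 4. One of its adaptors, TRIF, activates the factor IRF3, which switches on interferon beta. Secreted interferon binds IFNAR1 and IFNAR2, and the kinases JAK1 and TYK2 then act on STAT2, which with IRF9 is part of the complex ISGF3. ISGF3 binds the interferon-stimulated response element in front of its target genes. The products block virus entry, translation and budding, sense foreign nucleic acid, attack the vacuoles of intracellular microbes, and in part turn the pathway itself up (IRF7) or down (USP18).

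All values are the deposited log2 signals, and a change is the difference between 2 group means on that scale. Deposited values went above the log2 ceiling of 16 for a 16-bit scan, so the scale is not that of the raw scan and no change is given as a fold. A silent level of 4.73 was taken from 1412 olfactory and vomeronasal receptor features, and 12744 features were above it in at least 1 group. The median of the gene features lay between 4.86 and 5.06 on every array, and arrays of one group correlated at 0.989 to 0.994. Of the macrophage markers, Lyz2 was at 18.61, Spi1 at 17.83 and Csf1r at 17.5 in control cells, and levels of the others are not given here. The 9 neutrophil, T, NK and B cell markers measured were all below the silent level. Plasmacytoid dendritic cell, fibroblast and epithelial markers were also listed, and their levels are not given here. A comparison was called at an adjusted p under 0.05 in limma, fitted on all 24 arrays and adjusted over all 22206 features. The labels number the 3 arrays of a group without naming separate cultures, so p-values measure the spread between these arrays, which may be technical. A whole-culture signal cannot tell fewer expressing cells from less RNA per cell.

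LPS raised all 39 measured members. The share called higher was 13.5% of all features in this comparison, and 20.3% were called lower, with no member among them. The median change of the members was 6.96, with a range of 1.93 to 11.31, beside a median of 0.03 over all features. In control cells 8 of the 39 had a mean below the silent level (Ifit1, Rsad2, Zbp1, Isg15, Mx1, Gbp2, Gbp3 and Iigp1), and in LPS cells none did. Changes of these 8 against control start from a signal not above background, so they have no exact size and no order among the members, and both ends of that range are theirs. All LPS arrays were above all control arrays in each of the 39, beside 19.4% of all features fully above and 24.5% fully below. The median level of the members was 14.39 in LPS cells and 7.78 in control cells.

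**Figure D1:**
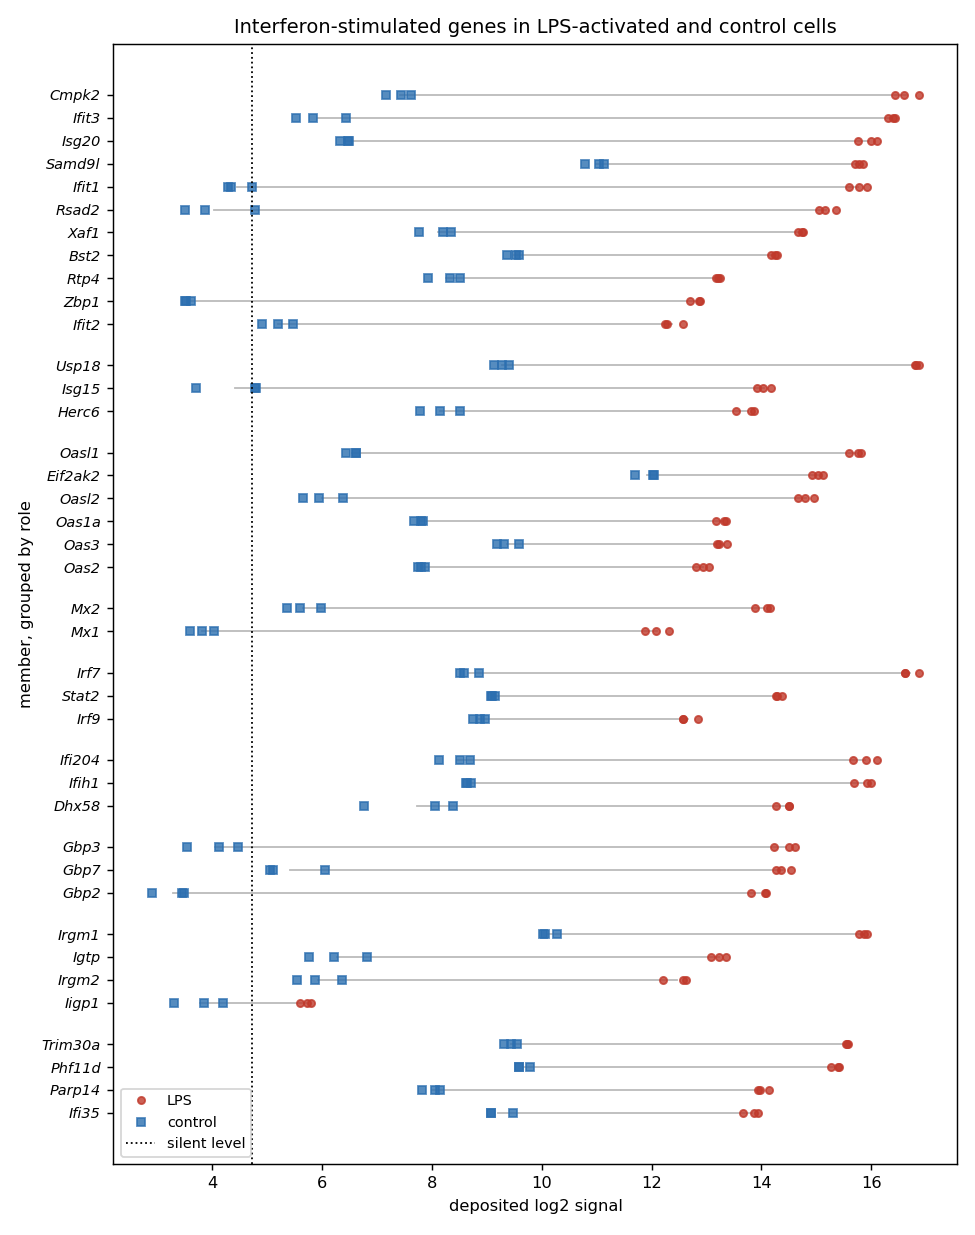
Deposited log2 signal of the 39 members in the 3 LPS arrays (circles) and the 3 control arrays (squares), grouped by role and joined at their means, with the silent level of 4.73 as a dotted line. In none of the 39 genes do the 2 groups overlap, and 8 control means lie below the dotted line.

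The antiviral effectors rose by a median of 9.22 over 11 genes. Ifit1, whose product binds viral RNA that lacks a host cap methylation, was at 15.59, 15.92 and 15.77 in LPS cells, against 4.28, 4.73 and 4.35 in control cells. The change was 11.31 ± 0.44 (SE; limma adjusted p = 1.9e-14). Rsad2, which encodes viperin, an enzyme that makes a chain-terminating nucleotide, was at 15.05, 15.35 and 15.15 with LPS and at 3.5, 4.77 and 3.86 without it. This change of 11.14 ± 0.7 started from a level at or below the silent level in 2 of 3 control arrays. Its genomic neighbour Cmpk2, a mitochondrial nucleotide kinase, rose by 9.22 ± 0.3, the exonuclease gene Isg20 by 9.52 ± 0.37, the Z-nucleic acid sensor Zbp1 by 9.26 ± 0.39 and Ifit3 by 10.44 ± 0.43. Samd9l, an inhibitor of translation and replication, and Bst2, which encodes the virion-tethering protein tetherin, changed least within the effectors, by 4.79 ± 0.14 and 4.74 ± 0.15.

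Guanylate-binding proteins, GTPases that coat and break the vacuoles of microbes, rose in all 3 members, of which Gbp2 and Gbp3 were below the silent level in control cells. Gbp2 was at 13.81, 14.06 and 14.08 in LPS cells, against 3.48, 3.45 and 2.9 in control cells, a change of 10.7 ± 0.46 (limma adjusted p = 8.55e-14). Gbp3 changed by 10.4 ± 0.45 and Gbp7 by 8.98 ± 0.39. The immunity-related GTPases, which act on the same vacuoles, had a median change of 6.14. Among them Iigp1 was little above the silent level even with LPS, at 5.6, 5.73 and 5.79 with LPS and at 3.3, 4.19 and 3.85 without it (1.93 ± 0.3, limma adjusted p = 1.95e-05).

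Isg15, the ubiquitin-like modifier that is attached to newly made proteins, was at 14.02, 14.17 and 13.92 in LPS cells, against 3.7, 4.77 and 4.79 in control cells. The change was 9.62 ± 0.49. Usp18, the protease that removes ISG15 and also blocks IFNAR2, was at 16.8, 16.82 and 16.86 in LPS cells, against 9.27, 9.13 and 9.41 in control cells. Among the transcription factors Irf7 changed by 8.05 ± 0.28, Stat2 by 5.2 ± 0.23 and Irf9 by 3.81 ± 0.17. The 2-5 oligoadenylate synthetase family, whose catalytic members make the activator of RNase L, spanned changes of 3.9 ± 0.16 for Oas3 to 9.16 ± 0.31 for Oasl1. Eif2ak2, which encodes the double-stranded RNA-activated kinase PKR, was at 15.03 ± 0.1 in LPS cells and at 11.92 ± 0.19 in control cells (SD, n = 3 each), a change of 3.1 ± 0.14.

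The response element that ISGF3 binds can be looked for in front of these genes. RefSeq promoter windows on build GRCm38.p6, of 250 bases before and 50 after the start site, were found for 29 of the 39 members. The core letters GAAANNGAAA, read on both strands, occurred in 17 of the 29 (58.6%), against 3.99% of all 27025 genes with a window. The gamma-activated site letters TTCNNNGAA occurred in 9 of the 29 (31.0%), against 9.55% of all genes. A match is a description of letters, not of binding, and a window without a match says nothing of sites elsewhere. The stretches below are examples among the members with a match, not all that meet a rule. Ifit1, Rsad2, Gbp2 and Isg15 had changes with LPS above 9, from control means below the silent level. Ifit3 (10.44) and Gbp3 (10.4) also had a match and are not printed. Bst2 and Stat2 were lower with medium PAC + LPS than with LPS, as were Eif2ak2 and Ifih1, which had a match and are not printed. Isg20 and Mx2 were also lower there, but no window of Isg20 had a core match and Mx2 had no window. Cmpk2, Isg20 and Oasl1, with changes of 9.22, 9.52 and 9.16, had a window without a core match. Each stretch runs 5′ to 3′ along the gene, with core matches on either strand in capitals.
Ifit1: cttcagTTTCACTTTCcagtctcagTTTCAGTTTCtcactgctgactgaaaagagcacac
Rsad2: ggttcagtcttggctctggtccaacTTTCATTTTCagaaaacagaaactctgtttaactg
Gbp2: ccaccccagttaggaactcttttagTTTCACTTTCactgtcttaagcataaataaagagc
Isg15: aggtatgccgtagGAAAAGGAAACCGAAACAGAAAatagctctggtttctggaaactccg
Bst2: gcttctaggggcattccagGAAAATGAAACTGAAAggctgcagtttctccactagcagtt
Stat2: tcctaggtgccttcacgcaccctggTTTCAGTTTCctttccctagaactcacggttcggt
The Ifit1 stretch lies at chr19:34640779-34640838 on the + strand and the Rsad2 stretch at chr12:26456538-26456597 on the - strand. The Gbp2 stretch lies at chr3:142620579-142620638 (+) and the Isg15 stretch at chr4:156200850-156200909 (-). Those of Bst2 and Stat2 lie at chr8:71537562-71537621 (-) and chr10:128270251-128270310 (+). The Isg15 stretch holds 3 overlapping matches, and those of Ifit1 and Bst2 hold 2 each.

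In resting cells no member was called with low PAC against control, with 0.0315% of all features called higher and 0.0045% called lower. The median change was 0.07 (range −0.81 to 0.8), and 4 members had an unadjusted p under 0.05, all higher. These 4 were Oasl1 (0.8 ± 0.31), Oas2 (0.5 ± 0.23), Ifi35 (0.47 ± 0.13) and Oas1a (0.38 ± 0.16). Oasl1 was at 7.27, 7.23 and 7.55 with low PAC, against 6.61, 6.61 and 6.44 in control cells, so its groups did not overlap although the adjusted p was 0.914. By arrays alone 6 members lay fully above control with low PAC (15.4% of members, beside 6.56% of all features), namely Ifit1, Oas1a, Oasl1, Irf7, Ifih1 and Ifi35. Stat2 lay fully below (2.56%, beside 5.94%).

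With medium PAC, 7 of 39 members were higher than in resting control cells (background 5.03% of all features) and 4 were lower (background 6.28%). The control arrays are shared by the comparisons of all 3 fractions in resting cells. Usp18 was at 10.58, 10.95 and 11.6 with medium PAC, against 9.27, 9.13 and 9.41 in control cells (change 1.78 ± 0.18, limma adjusted p = 5.05e-07). Every medium PAC array was above every control array. Oas1a, a synthetase of 2-5 oligoadenylate, was at 8.87, 8.66 and 8.73 with medium PAC and at 7.68, 7.81 and 7.84 in control cells (0.98 ± 0.16, limma adjusted p = 0.000296). Its relative Oas3 changed by 0.68 ± 0.16 and Oasl1, which in mice restrains Irf7 translation, by 1.09 ± 0.31. Ifit3 was at 6.36, 7.47 and 8.32 with medium PAC, against 5.84, 6.44 and 5.53 in control cells (1.45 ± 0.43, limma adjusted p = 0.0327), with overlap of 1 array. The DNA sensor Ifi204 (0.94 ± 0.23) and the GTPase Irgm1 (0.81 ± 0.19) were the others.

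The 4 lower members were not of one role. Rtp4, a negative regulator of interferon signalling in mouse, was at 7.14, 7.64 and 7.98 with medium PAC, against 8.52, 7.93 and 8.32 in control cells (−0.67 ± 0.17, limma adjusted p = 0.0135). One medium PAC array overlapped the control range. Parp14, an ADP-ribosyltransferase, was at 7.39, 6.97 and 7.66 with medium PAC and at 7.82, 8.06 and 8.15 in control cells, a change of −0.67 ± 0.16 without overlap. Samd9l changed by −0.48 ± 0.14 and Ifih1, which encodes the RNA sensor MDA5, by −0.5 ± 0.16, with Ifih1 just under the threshold.

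With high PAC, 11 of 39 members were higher than in control cells (background 3.21%) and 1 was lower (background 3.64%). The median change was 0.41, beside 0.01 over all features. Usp18 was at 10.66, 10.91 and 10.56 with high PAC, against 9.27, 9.13 and 9.41 in control cells (1.44 ± 0.18, limma adjusted p = 2e-05). Irf7, the factor that amplifies interferon alpha genes, was at 9.86, 10.15 and 10.18 with high PAC and at 8.85, 8.52 and 8.58 in control cells (1.41 ± 0.28, limma adjusted p = 0.00229). Its 3 high PAC arrays were close together and clear of the control arrays. Oasl1 changed by 1.6 ± 0.31, Ifit1 by 1.76 ± 0.44, Gbp3 by 1.51 ± 0.45, Cmpk2 by 1.24 ± 0.3 and Mx1, an antiviral GTPase of the nucleus, by 1.74 ± 0.37. The control means of Ifit1, Gbp3 and Mx1 were below the silent level. Mx1 was at 4.73, 6.47 and 5.46 with high PAC, against 3.6, 3.81 and 4.03 in control cells, so it went only a little past the silent level. Ifi204, Oas1a, Oas3 and Irf9 changed by 0.88, 0.76, 0.69 and 0.58. Samd9l was the lower member, at 10.39, 10.06 and 10.44 with high PAC, against 11.14, 11.04 and 10.79 in control cells (−0.69 ± 0.14, limma adjusted p = 0.00341).

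**Figure D2:**
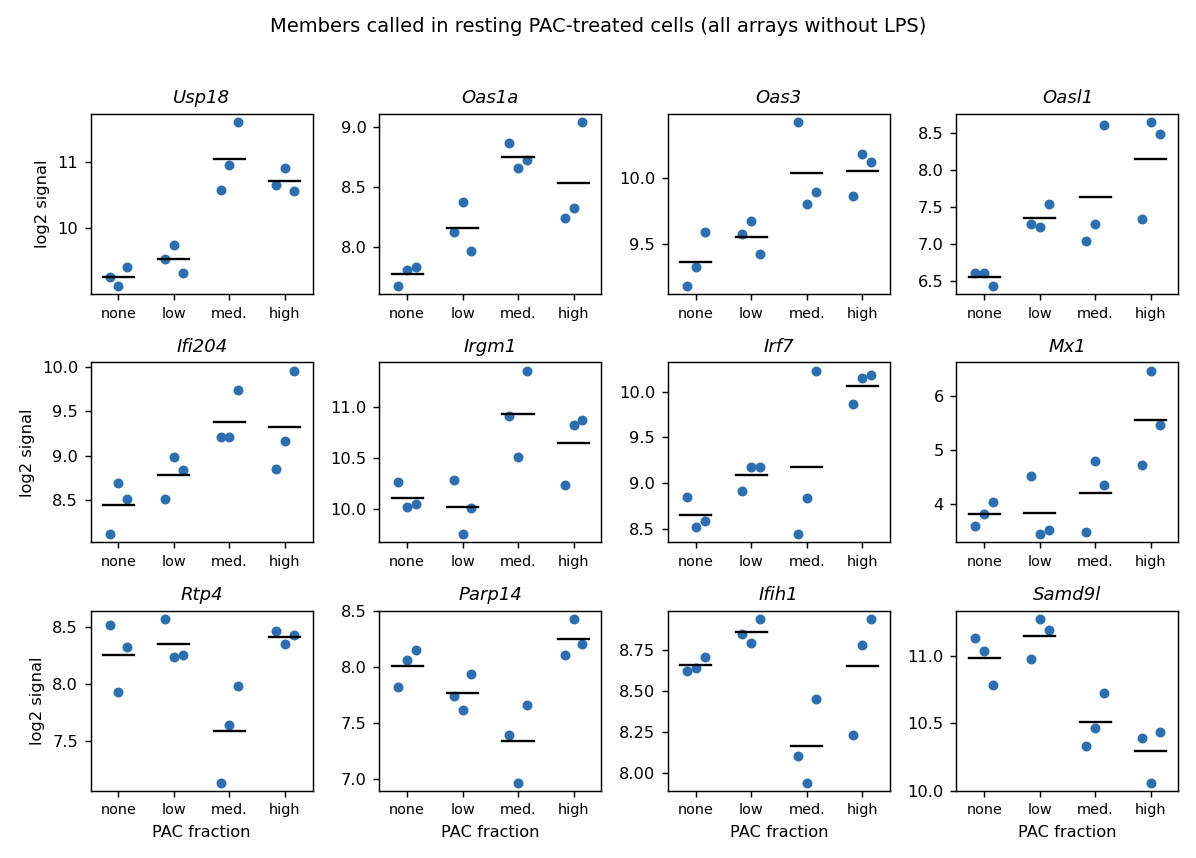
Deposited log2 signal of 12 members in the 3 arrays of each resting group (points) with the group mean (bar), with no PAC, low, medium and high PAC along the axis. Usp18 lies above 10.5 in all 6 medium and high PAC arrays and below 9.8 in all control and low PAC arrays, while in Oasl1 and Irf7 medium PAC array 3 stands above the other 2.

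Members did not move evenly across the resting arrays. The median difference of the 39 members from the control mean was −0.15, 0.02 and 0.42 in the 3 medium PAC arrays and −0.13, 0.59 and 0.75 in the 3 high PAC arrays. Members more than 1 above control numbered 4, 3 and 12 in medium PAC and 2, 14 and 15 in high PAC. The same 3 arrays, medium PAC array 3 and high PAC arrays 2 and 3, had Il1b, an NF-κB target that is no member, at 9.39, 11.92 and 9.62, against 4.95 to 5.02 in the other 3 arrays of these groups and 4.86 to 6.4 in control cells. Rsad2 was at 6.62 in medium PAC array 3 and at 6.39 and 6.73 in high PAC arrays 2 and 3, against 3.35 to 4.09 in the other 3 arrays of these groups. With those 3 arrays left out, high PAC had 1 array, which the fit takes to vary like the other groups. The same 7 members were then higher with medium PAC and 7 were lower. Among the lower, Ifit1 (3.44 and 3.91) and Isg15 (3.22 and 3.69) were below the silent level in both groups, and their changes are not read. In the high PAC array left, Usp18 was at 10.66, Irf7 at 9.86, Oasl1 at 7.34 and Cmpk2 at 7.91. The control means of these genes were 9.27, 8.65, 6.55 and 7.41. Stat2 was at 8.31 and Samd9l at 10.39, against control means of 9.11 and 10.99. Isg15 was at 2.9, below the silent level like its control mean of 4.42, and is not read. Over all alternatives, Usp18 with medium PAC was called in all 13 alternative fits (change 1.5 to 2.01) and so was Oas1a (0.92 to 1.13), as with high PAC were Usp18 (1.34 to 1.57), Irf7 (1.21 to 1.59) and Oasl1 (0.78 to 2.01). Gbp3 with high PAC was lost in 9 of 13 (0.29 to 2.12).

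The counts in resting cells also moved with single arrays. Without control array 1 or without medium PAC array 3, 4 members were higher with medium PAC, and 1 was lower without control array 1 or either of medium PAC arrays 1 and 2, and 2 without control array 2. With high PAC 5 members were higher without control array 1, 17 without high PAC array 1 and 7 without high PAC array 2 or 3. A fit on only the compared groups called 3 members higher with medium PAC (Usp18, Oas1a and Ifi204), 3 with high PAC (Usp18, Oasl1 and Irf7) and none lower. The main fit shares 1 spread per gene across all groups, but the groups were not equally spread. The median SD of the members was 0.4 with medium PAC, 0.48 with high PAC and 0.22 in control cells. In the groups with LPS it was 0.07 to 0.13, and these closer arrays enter the standard errors given for resting cells. Counting arrays without a model, 6 members (15.4%) had all medium PAC arrays above all control arrays, beside 13% of all features. All medium PAC arrays were below in 4 members (10.3%), beside 16%. With medium PAC, members thus separated from control about as often as all features, or less often. For high PAC these were 11 members (28.2%) beside 11.5% and 1 member (2.56%) beside 12.5%.

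**Figure D3:**
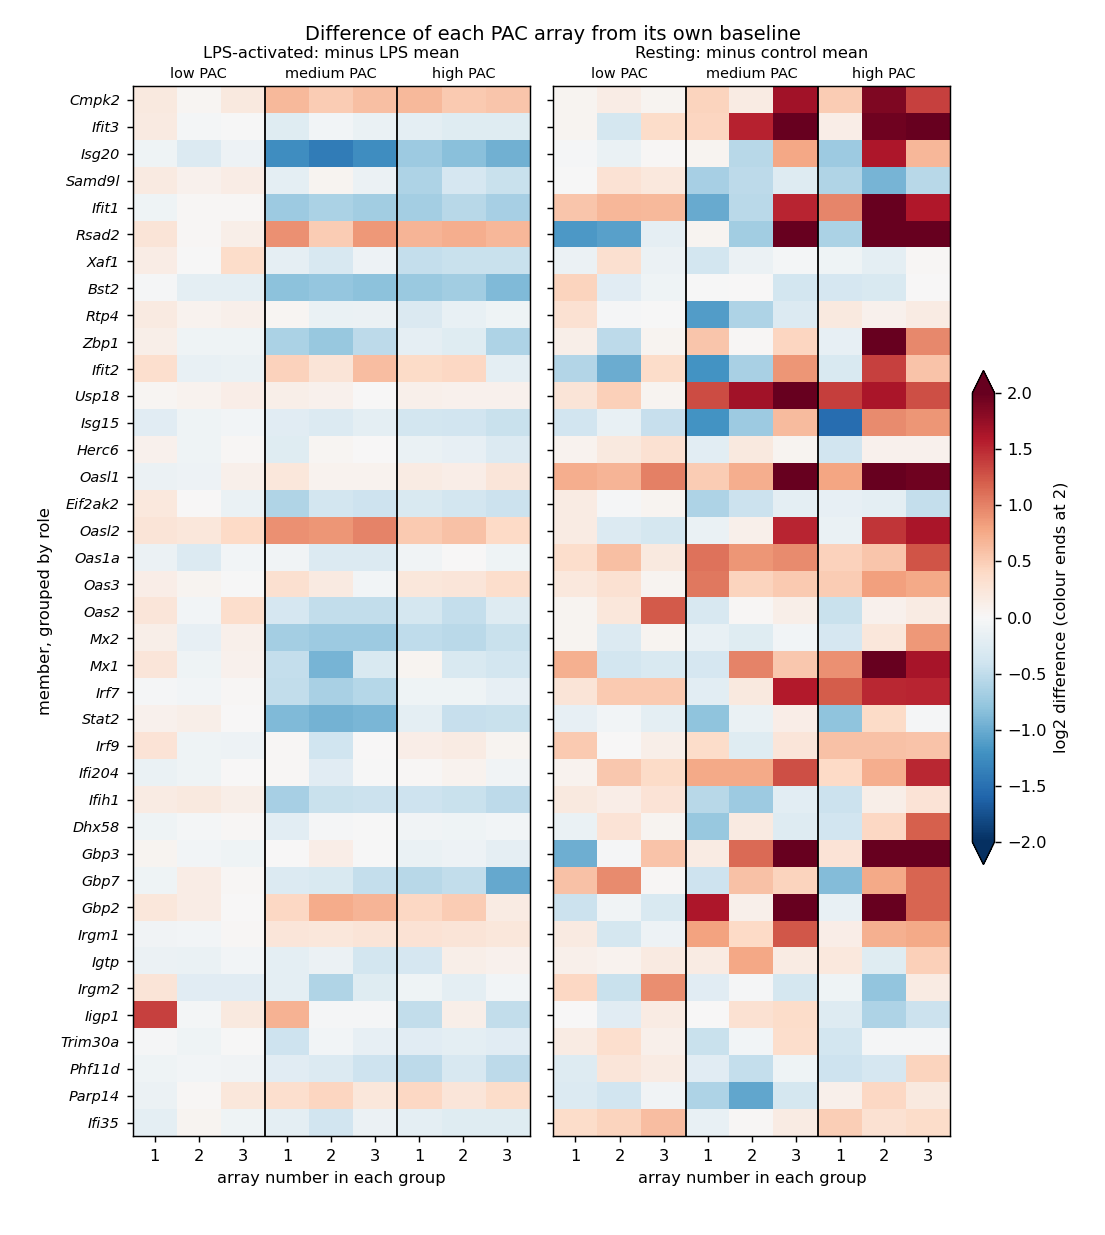
Log2 difference of each PAC array from the mean of its own baseline for the 39 members, with LPS-activated arrays minus the LPS mean on the left and resting arrays minus the control mean on the right; the colour ends at 2 in both directions. With LPS the arrays of a group look alike, whereas among resting arrays medium PAC array 3 and high PAC arrays 2 and 3 carry most of the high values.

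In LPS-activated cells no member was called with low PAC + LPS against LPS, with 0.122% of all features called higher and 0.027% lower, and none had an unadjusted p under 0.05. The median change was 0.02 (range −0.16 to 0.51). Fully above LPS lay 4 members (10.3%, beside 6.56% of all features) and fully below none (beside 6.38%). The change of 0.51, of Iigp1, came from a single low PAC + LPS array at 7.07, with the other 2 at 5.67 and 5.9 and the LPS arrays at 5.6, 5.73 and 5.79.

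With medium PAC + LPS, 6 of 39 members were lower than with LPS (15.4% of members, beside a background of 7.47%) and none was called higher (background 7.17%). The median change was −0.2, beside 0.01 over all features, and 27 of the 39 changes were negative. Isg20, which degrades single-stranded RNA, was at 14.7, 14.55 and 14.71 with medium PAC + LPS, against 15.75, 16.1 and 15.99 with LPS (−1.29 ± 0.37, limma adjusted p = 0.0209). The groups were about 1 unit apart at their nearest arrays. Stat2, the subunit of ISGF3 that carries its activation domain, was at 13.42, 13.37 and 13.4 with medium PAC + LPS, against 14.27, 14.38 and 14.28 with LPS (−0.92 ± 0.23, limma adjusted p = 0.00743). Bst2 was at 13.41, 13.45 and 13.41 with medium PAC + LPS and at 14.28, 14.24 and 14.18 with LPS (−0.81 ± 0.15, limma adjusted p = 0.000681). In each of these 3 genes the arrays of a group lay within 0.4 of each other. The Mx GTPase Mx2 (−0.71 ± 0.21), the RNA sensor Ifih1 (−0.51 ± 0.16) and the kinase Eif2ak2 (−0.45 ± 0.14) were the others.

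These decreases were small beside the LPS change of the same genes. Stat2 in medium PAC + LPS cells was still at 13.4 ± 0.03 (SD, n = 3), against 9.11 ± 0.04 in resting control cells. Isg20 was at 14.65 ± 0.09 with medium PAC + LPS and at 6.43 ± 0.09 in resting control cells.

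With high PAC + LPS, 2 of 39 members were lower than with LPS, a share no larger than the 5.74% of all features. None was called higher (background 4.34%). Bst2 was at 13.49, 13.54 and 13.34 with high PAC + LPS, against 14.28, 14.24 and 14.18 with LPS (−0.77 ± 0.15, limma adjusted p = 0.00202). Samd9l was at 15.17, 15.44 and 15.33 with high PAC + LPS and at 15.78, 15.85 and 15.71 with LPS (−0.47 ± 0.14, limma adjusted p = 0.0403). Isg20, at 15.22, 15.11 and 14.99 with high PAC + LPS, changed by −0.84 ± 0.37 and did not pass (limma adjusted p = 0.181). Leaving out LPS array 1, 2 or 3, or high PAC + LPS array 1 or 3, gave 1 lower member. All comparisons of PAC + LPS with LPS share the LPS arrays.

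Most members outside these calls also separated by array, in both directions. With medium PAC + LPS 16 of 39 members had all 3 arrays below all 3 LPS arrays (41% of members, beside 14.4% of all features) and 7 had all above (17.9%, beside 13.6%). With high PAC + LPS 18 were fully below (46.2%, beside 13.6%) and 9 fully above (23.1%, beside 11.5%). Among the members fully above in both were Rsad2 and its neighbour Cmpk2, the synthetase-like Oasl2, Gbp2, Irgm1 and Parp14. Oasl2, an inhibitor of DNA sensing by cGAS in mice, was at 15.73, 15.7 and 15.8 with medium PAC + LPS, against 14.67, 14.95 and 14.79 with LPS (0.94 ± 0.38, limma adjusted p = 0.119). Rsad2 was at 16.09, 15.69 and 16.04 with medium PAC + LPS, against 15.05, 15.35 and 15.15 with LPS (0.75 ± 0.7, limma adjusted p = 0.591). The fit shares 1 spread across all groups for each gene, and that of Rsad2 was 1.83 (SD) in high PAC cells and 0.15 in LPS cells. A fit on only the medium PAC + LPS and LPS arrays called Oasl2 and Rsad2 higher, and Isg20, Stat2, Bst2, Mx2, Ifit1 and Zbp1 lower. Without LPS array 2 or LPS array 3 the lower count in the fit on all groups was 2, and without any 1 of the medium PAC + LPS arrays it was 3. Stat2 and Bst2 were called in all 12 alternative fits, with changes of −0.93 to −0.88 and −0.84 to −0.79.

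**Figure D4:**
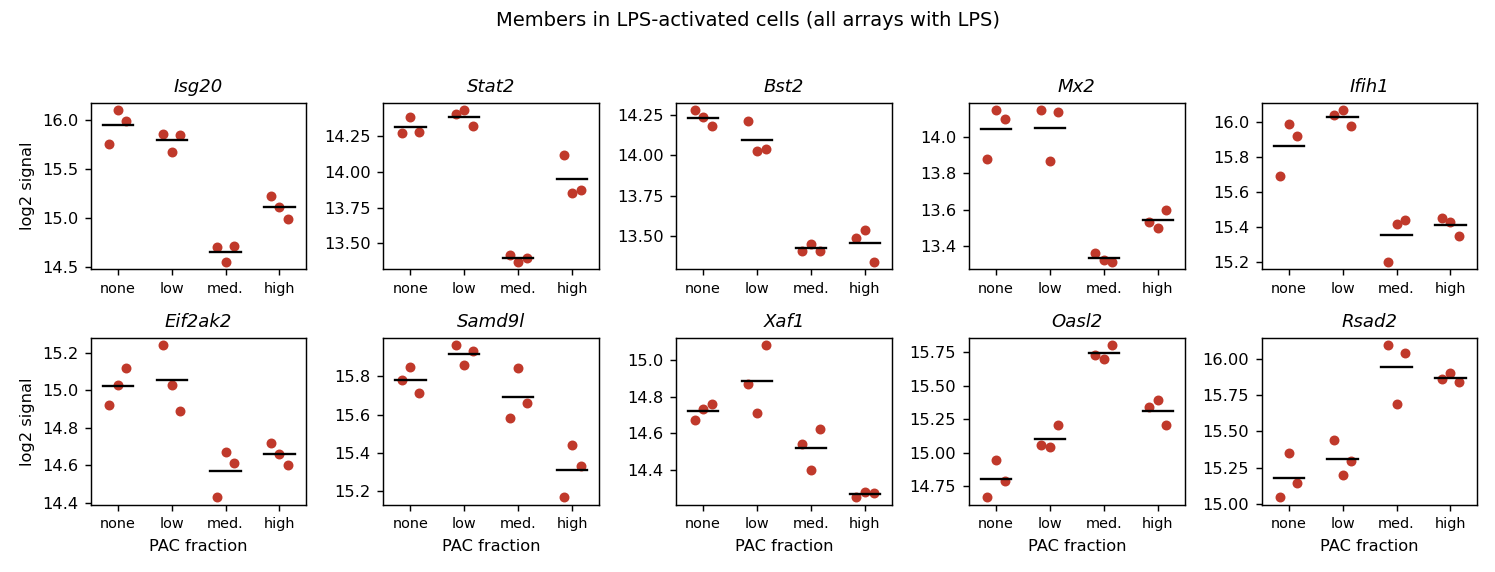
Deposited log2 signal of 10 members in the 3 arrays of each group with LPS (points) with the group mean (bar), with no PAC, low, medium and high PAC along the axis. Stat2, Bst2 and Isg20 are lower with medium PAC + LPS than in all LPS and low PAC + LPS arrays, whereas Oasl2 and Rsad2 are higher; each panel has its own scale, which does not start at 0.

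The fractions were compared with each other at the same mass concentration and time, in 3 pairs per state. Their molar concentrations were not matched, so chain length and molar dose cannot be told apart here. In resting cells 5 members were higher with medium PAC than with low PAC (background 4.01%) and 5 were lower (background 4.72%). Usp18 was higher by 1.52 ± 0.18 (limma adjusted p = 5.34e-06), and Ifit3 by 1.43 ± 0.43, Irgm1 by 0.91 ± 0.19 and Oas1a by 0.59 ± 0.16. Gbp2 was the fifth, but its means were below the silent level in both groups and its change is not read. Rtp4 (−0.77 ± 0.17), Ifih1 (−0.7 ± 0.16), Samd9l (−0.65 ± 0.14), Eif2ak2 (−0.48 ± 0.14) and Ifi35 (−0.46 ± 0.13) were lower. The counts were 1 and 0 in a fit on only the compared groups, with Usp18 the one left, and 2 members were higher without medium PAC array 3 or without low PAC array 1 or 3, and 3 without low PAC array 2. The lower count was 3 without low PAC array 2 or 3 or without medium PAC array 1 or 2.

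High PAC against low PAC gave 5 higher members (background 2.1%) and 1 lower (background 2.77%). Mx1 (1.73 ± 0.37), Gbp3 (1.65 ± 0.45), Usp18 (1.18 ± 0.18), Cmpk2 (1.15 ± 0.3) and Irf7 (0.97 ± 0.28) were higher, and Samd9l was lower (−0.86 ± 0.14). The low PAC means of Mx1 and Gbp3 were below the silent level. Without high PAC array 1 the higher count was 12, without high PAC array 2 it was 1, and without array 3 it was 2. It was 2 or 3 when a low PAC array was left out.

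Medium PAC against high PAC gave no higher member (background 1.47%) and 3 lower ones (background 0.797%). Ifit1 was at 3.44, 3.91 and 5.97 with medium PAC, against 5.42, 7.15 and 6.05 with high PAC (−1.77 ± 0.44, limma adjusted p = 0.0343), with overlap of 1 array and a medium PAC mean below the silent level. Parp14 (−0.91 ± 0.16) and Rtp4 (−0.83 ± 0.17) did not overlap between these groups. Without high PAC array 1 there were 6 lower members, without medium PAC array 1 there was 1, and a fit on only the compared groups called none. Usp18, higher than control with both fractions, differed between them by less than the arrays of medium PAC differed among themselves.

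With LPS, 5 members were lower with medium PAC + LPS than with low PAC + LPS (background 6.09%) and none was called higher (background 6.4%). Stat2 changed by −0.99 ± 0.23, Mx2 by −0.72 ± 0.21, Bst2 by −0.67 ± 0.15, Ifih1 by −0.67 ± 0.16 and Eif2ak2 by −0.48 ± 0.14. The lower count was 3 without low PAC + LPS array 1 or without medium PAC + LPS array 1 or 3. High PAC + LPS against low PAC + LPS gave 4 lower members (background 3.85%) and no higher one (background 3.14%). These were Bst2 (−0.63 ± 0.15), the apoptosis-linked Xaf1 (−0.62 ± 0.16), Ifih1 (−0.61 ± 0.16) and Samd9l (−0.6 ± 0.14), and the count was 2 without low PAC + LPS array 1 or without high PAC + LPS array 1 or 3. Between medium PAC + LPS and high PAC + LPS no member was called, with 2.96% of all features higher and 2.4% lower. The change nearest to a call on the lower side was Stat2, at −0.55 with a 95% interval of −1.03 to −0.08 (limma adjusted p = 0.193). On the higher side, Samd9l was at 15.58, 15.84 and 15.66 with medium PAC + LPS, against 15.17, 15.44 and 15.33 with high PAC + LPS. Among the alternative fits, only that with a variance trend called Samd9l higher, and none called Stat2.

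The interaction asked whether the log2 change with a fraction differed between the states. It is the change with LPS minus the change without it. On a log2 scale, the same added signal is a smaller change where LPS has already raised the level. A negative interaction of a member raised by LPS therefore does not by itself show that the fraction acted differently, which was not tested. For low PAC no feature was called (0% higher and 0% lower). For medium PAC 1 member had a positive interaction (background 3.04%) and 2 a negative one (background 3.25%), and the median over the members was −0.37. Usp18 had −1.7 ± 0.26 (limma adjusted p = 0.000159): it was higher with medium PAC in resting cells but at 16.95, 16.92 and 16.84 with medium PAC + LPS, against 16.8, 16.82 and 16.86 with LPS. Oas1a had −1.18 ± 0.23 and Parp14 0.99 ± 0.23. Without medium PAC array 1 the negative count was 4. For high PAC no member was positive (background 0.761%) and 2 were negative (background 1.15%), with a median of −0.48. Usp18 had −1.35 ± 0.26 and Irf7 −1.53 ± 0.39, which was lost in 14 of 19 alternative fits. Without high PAC array 1 the negative count was 10, and it was 1 when any other single array of the 4 groups was left out.

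**Figure D5:**
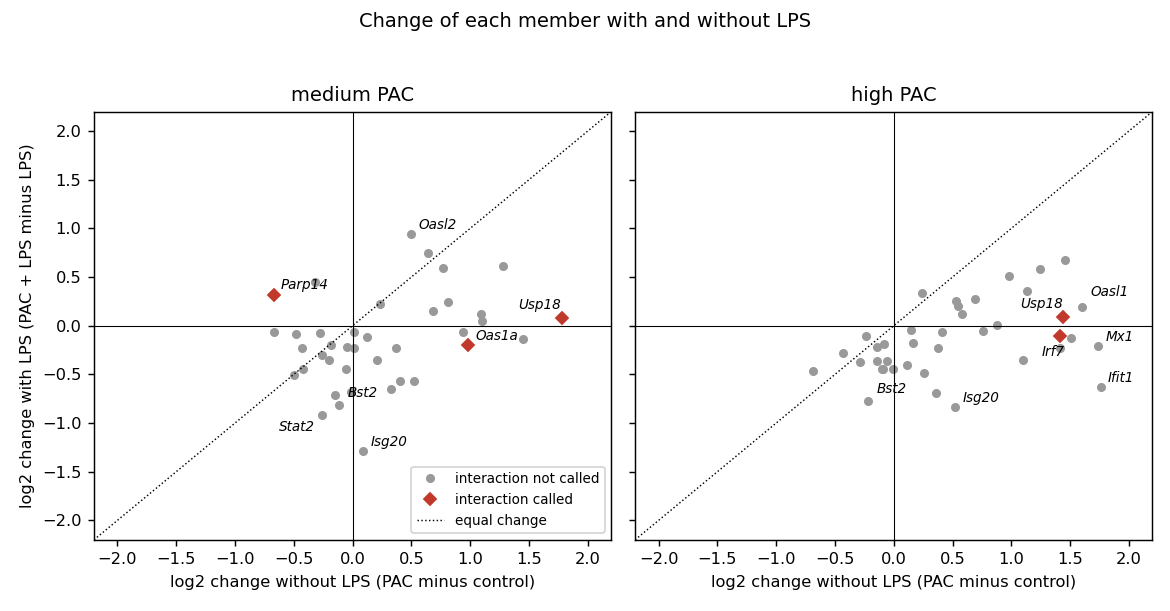
Change of each of the 39 members in resting cells (PAC minus control, x axis) and in LPS-activated cells (PAC + LPS minus LPS, y axis), in log2 units, for medium and high PAC, with the line of equal change dotted. Usp18 lies at 1.78 and 1.44 on the x axis and near 0 on the y axis, and Isg20 at −1.29 and −0.84 on the y axis.

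Genes that act before the members in the pathway were read from a list of ligands, receptors, kinases, adaptors and inhibitors. Of 21 ligand genes measured, 4 were called higher with LPS than in control cells (19%, beside the 13.5% of all features). Ifnb1, the interferon beta gene, was at 3.99, 5.52 and 3.85 in LPS cells, against 3.25, 3.52 and 2.6 in control cells and counts among the 4, but its means in both groups were below the silent level and its change is not read. Il27, a subunit of interleukin 27, rose by 10.21 from a control mean of 4.37, below the silent level, and its partner Ebi3 rose by 2.64. Of 6 receptor genes Ifnar2 (−1.41) and Ifngr1 (−1.01) fell with LPS (33.3%, beside 20.3%), and of the kinase and STAT genes Jak2 (4.55) and Stat3 (4.33) rose. In resting cells with PAC no ligand was called with any fraction.

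With medium PAC + LPS against LPS several of these genes were lower beside Stat2. Jak2, which serves the interferon gamma receptor, was at 12.49, 12.88 and 13.07 with medium PAC + LPS, against 14.74, 14.87 and 14.72 with LPS (−1.96 ± 0.17, limma adjusted p = 3.24e-08). Il27 (−1.99), Stat3 (−0.93) and Tlr4, the LPS receptor (−1.43), were lower too. Of the feedback inhibitors 6 of 8 were lower (75%, beside 7.47%), among them Socs3 (−1.85) and Socs1 (−1.27), which block JAK kinases. Ifnar2 (0.34) and Ticam2, whose product TRAM links the receptor to TRIF (1.65), were higher. With high PAC + LPS Jak2 (−1.1), Il27 (−0.96), Tlr4 (−0.66), Socs1 (−1.33) and Ticam2 (0.97) were called in the same directions, against the same LPS arrays.

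A further 59 interferon-stimulated genes outside the members were measured. With LPS 58 of the 59 were higher than in control cells (98.3%, beside 13.5% of all features). In resting cells 9 were higher with medium PAC (15.3%, beside 5.03%) and 8 lower (13.6%, beside 6.28%). With high PAC 11 were higher (18.6%, beside 3.21%) and 1 lower (1.69%, beside 3.64%). In LPS-activated cells 14 were lower with medium PAC + LPS (23.7%, beside 7.47%) and 1 higher (1.69%, beside 7.17%). With high PAC + LPS 9 were lower (15.3%, beside 5.74%) and none higher. A list of NF-κB target genes was set beside them, without assigning it to an arm of the receptor. Of 25 such genes 9 were higher with medium PAC (36%, beside 5.03%) and 11 with high PAC (44%, beside 3.21%) in resting cells, and none was lower. Il1b, on this list, was at 9.39, 11.92 and 9.62 in medium PAC array 3 and high PAC arrays 2 and 3. In the other arrays of these groups it was at 4.95 to 5.02. Counts of genes outside the members were not taken without those high arrays. With medium PAC + LPS 9 were lower (36%, beside 7.47%) and 2 higher (8%, beside 7.17%). With high PAC + LPS 6 were lower (24%, beside 5.74%) and 2 higher (8%, beside 4.34%). Of the 8 macrophage markers 5 were lower with medium PAC (62.5%, beside 6.28%) and 2 with high PAC (25%, beside 3.64%) in resting cells. With LPS 4 were lower with medium PAC + LPS (50%, beside 7.47%) and 1 with high PAC + LPS (12.5%, beside 5.74%). Their part in the members' changes was not tested. Several members are close relatives in sequence (the Oas, Ifit, Gbp and Irgm families), and whether probes of one also bind RNA of another was not tested.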

How the data were processed

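The values analysed are the deposited table of log2 signals of 24 arrays, with 28846 features, which the authors made from Affymetrix Clariom S mouse arrays of total RNA. The authors analysed them in Transcriptome Analysis Console, and for the background correction, the normalization and the transformation that takes values above 16 no setting was found in the sources read. The 6640 control features were left out. Of the 22206 gene features, 19572 (88.1%) had 1 gene symbol in the platform annotation, updated through RefSeq (GRCm38.p6), and 2634 had none.

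Arrays were grouped by their titles, 3 in each of 8 groups. One mean per group was fitted with limma 3.58.1 in R 4.3.3 (16 residual degrees of freedom), with Benjamini-Hochberg adjustment over all gene features in each comparison. The fit was tested on simulated data with planted changes. The rule for full statistics took up to 10 called members with the largest changes in a comparison. It was not followed to the letter: members that show a role, and some not called (Oasl2, Rsad2 and Isg20 among them), were added after their values were seen, and others are given in short form. The members, the pathway lists and the tests were chosen with earlier results of these data known. Alternatives were fits on only the compared groups, quantile normalization, a filter at the silent level, array weights, a variance trend with a robust prior, the replicate number as a block, leaving out each array, and leaving out 3 resting arrays together. The number of arrays limits the precision. Promoter sequences are RefSeq's.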

Additional observations from a re-analysis of the deposited data

Results flagged for a closer look

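By limma's interaction term, the log2 change with a PAC fraction differed between LPS-activated and resting cells for 4 members. All 4 were raised by LPS, so a negative value does not by itself show that the fraction acted differently, which was not tested. For medium PAC the interaction was −1.7 for Usp18, −1.18 for Oas1a and 0.99 for Parp14. Of all features 3.25% were called negative and 3.04% positive in this comparison. For high PAC it was −1.35 for Usp18 and −1.53 for Irf7, beside 1.15% of all features called negative and 0.761% positive. Usp18 changed by 0.08 with medium PAC + LPS against LPS and by 1.78 with medium PAC against control, and its interactions were called in all 19 alternative fits of each fraction (limma adjusted p at most 0.00683 for medium PAC and 0.0199 for high PAC). Oas1a was also called in all 19, with an adjusted p of at most 0.00944. Parp14 was called in 18 of 19. Irf7 was called in 5 of 19, with adjusted p between 0.00635 and 0.118.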

How the results depend on the processing

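The 39 higher members with LPS and the absence of calls with low PAC, with or without LPS, and for the interaction of low PAC were the same in all alternatives. Over the called members and their alternative fits, 1103 of 1313 kept their call, 210 lost it and 0 changed sign. The 39 calls of LPS against control, with 12 alternative fits each, are in this total and lost none. All 210 losses were thus among the calls with PAC and their interactions, which kept a smaller share than the total shows. In a fit on only the compared groups the counts of higher and lower members were 3 and 0 for medium PAC, 3 and 0 for high PAC, 2 and 6 for medium PAC + LPS, 1 and 0 for medium against low PAC, 2 and 0 for high against low PAC, 0 lower for medium against high PAC, 1 higher for medium PAC + LPS against low PAC + LPS, 0 lower for high PAC + LPS against low PAC + LPS, and 0 positive for the interaction of medium PAC. Fewer arrays enter these fits, and the spread is taken from the compared groups alone, which was larger with medium and high PAC in resting cells than with LPS. Quantile normalization gave 3 lower for medium against low PAC, 8 higher for high against low PAC and 4 negative interactions for medium PAC. The silent-level filter gave 4 lower with high PAC + LPS, 11 higher for high against low PAC, and 4 and 6 negative interactions for medium and high PAC. Array weights gave 1 lower with high PAC + LPS and 1 negative interaction for high PAC. The variance trend gave 6 lower with high PAC + LPS, 9 higher for high against low PAC, 5 lower for medium against high PAC, 1 higher for medium PAC + LPS against high PAC + LPS, and 4 negative interactions for each of medium and high PAC. Without medium PAC array 3 and high PAC arrays 2 and 3 together, 7 were lower with medium PAC, Ifit1 and Isg15 among them with signals below the silent level. There were 2 positive and 4 negative interactions for medium PAC. High PAC then had 1 array, and its counts are not given. The cause of these shifts was not tested.

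Leaving out 1 array at a time gave 4 to 8 higher and 1 to 5 lower for medium PAC, 5 to 17 higher for high PAC, 2 to 6 lower for medium PAC + LPS and 1 to 2 for high PAC + LPS. Medium against low PAC had 2 to 5 higher and 3 to 7 lower, high against low PAC 1 to 12 higher, and medium against high PAC 1 to 6 lower. With LPS, medium against low PAC had 3 to 4 lower and high against low PAC 2 to 4. Negative interactions numbered 2 to 4 for medium PAC and 1 to 10 for high PAC. A stricter response element, GAAANNGAAACT, was in 31.0% of members' windows and 0.303% of all genes.

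Same-numbered arrays did not deviate together, with correlations of −0.06 to 0.08 over 39 pairs. The replicate block gave 1 lower member with high PAC + LPS, against 2 without the block, and moved no other count by more than 1.5 times.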
